A study of Mus musculus with 24 samples.

Results

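Livers of mice given vutiglabridin were compared with livers of mice given vehicle, gene by gene. Of the 24 liver samples of the series 16 were used, 8 labelled vutiglabridin and 8 labelled vehicle, and all come from the steatohepatitis setting that the series describes. Of the 14293 protein-coding genes in the deposited table, 11324 were tested, namely those with at least 0.5 FPKM in at least 8 of these 16 samples. FPKM are fragments per kilobase of transcript and per 1000000 fragments of the library. Vutiglabridin is an analog of glabridin, a licorice flavonoid, and the series title calls it an agonist of paraoxonase-2. The labels name the tissue and the treatment only, so strain, sex, age, disease model, dose, duration and the link between samples and animals could not be taken from them. Nothing says that the samples are separate animals, so p-values cover only sample-to-sample spread, technical spread included. The comparison asks which genes and processes of the diseased liver differed under the drug.

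The liver parenchyma is made of hepatocytes, which secrete plasma proteins, conjugate drugs and steroids for excretion, take up bile acids from blood, and break down amino acids, with the methionine cycle supplying methyl groups. In steatohepatitis these cells fill with fat, monocyte-derived macrophages enter the tissue, stellate cells turn into matrix-producing myofibroblasts, and bile duct cells multiply. Macrophages sense antibody and dying cells through receptors whose adaptors carry tyrosine motifs (ITAM), and they move by remodelling actin.

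The 16 libraries differed in 3 ways that bear on all values below. First, the sum of FPKM over all rows averaged 368614 ± 14580 in vutiglabridin and 330352 ± 14299 in vehicle livers (SD, n = 8 each), a difference of 38262 (2-sided exact permutation test, p = 0.000622). It was 344271 to 385601 in vutiglabridin and 318267 to 352578 in vehicle libraries, so the ranges overlap only narrowly. Alb, which encodes albumin, accounted for 11.8% of that difference, with means of 26609 FPKM in vutiglabridin and 22085 FPKM in vehicle livers, but was not called (log2 change 0.26 ± 0.10, TPM 0.10, limma adjusted p = 0.11). Because of the unequal sums, log2 changes and list counts are also given after rescaling every library to a sum of 1000000 (TPM), whereas counts of cell type markers are on FPKM. Over all genes the median log2 change was −0.13 on TPM, against 0.01 on FPKM. Second, 1 library went largely against its label over all called genes, and in single lists below other vutiglabridin libraries did too. When a sample was left out and the other 15 were fitted, the left-out sample lay on its own group's side of the midpoint for 37.5% of the called genes in vutiglabridin replicate 3 (35.2% on TPM), for 60.9% to 88.8% in the other 7 vutiglabridin samples, and for 59.2% to 93.1% in the 8 vehicle samples. Without vutiglabridin replicate 3, 344 genes had groups that did not overlap, and 199 with it. Of called genes, 342 did not overlap without it and 308 without vehicle replicate 8, against 197 with all samples. Finally, the size of 1-fragment steps in the low values implied a depth, in units of 1000000 fragments, of 5.96 to 15.3 per vutiglabridin library and of 12.0 to 19.8 per vehicle library, the least in vutiglabridin replicate 7.

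**Figure D1:**
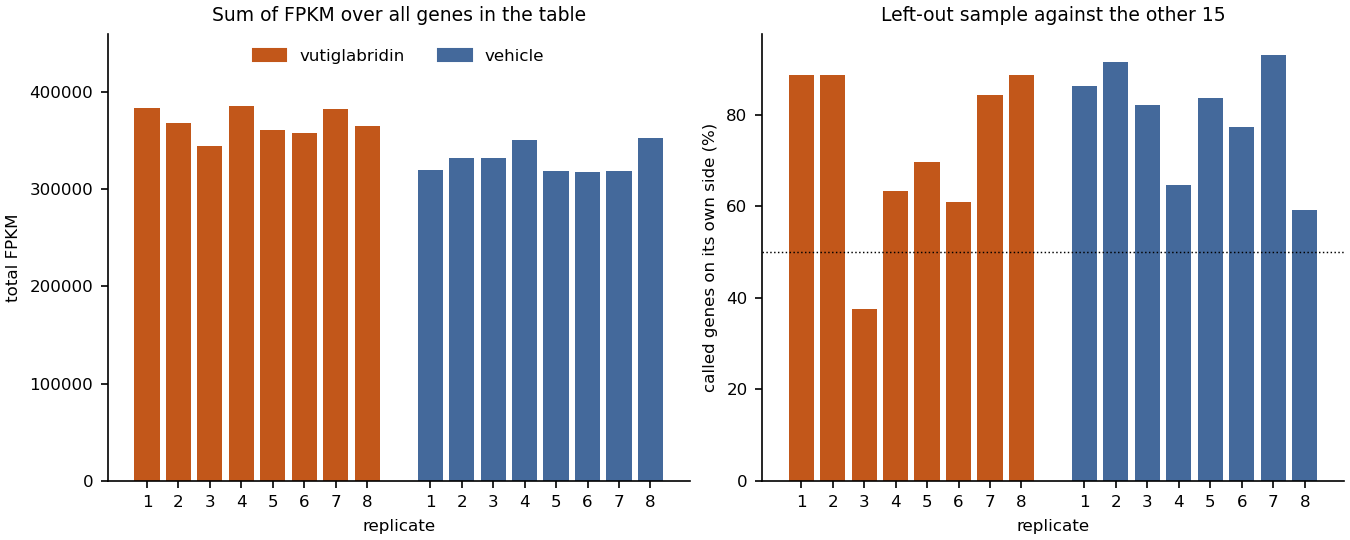
Sum of FPKM per library (left) and, for each sample left out in turn, the percentage of genes called in the other 15 for which it lay on its own group's side of the midpoint between the group means (right). Bars are single samples, vutiglabridin in orange and vehicle in blue; only vutiglabridin replicate 3, at 37.5%, lies under the dotted line at 50%.

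On FPKM, 1586 genes (14.0% of those tested) had a limma adjusted p under 0.05, of which 720 (6.36%) were higher and 866 (7.65%) lower in vutiglabridin livers. On TPM, 2644 genes (23.3%) passed, 237 (2.09%) higher and 2407 (21.3%) lower. No gene was called in opposite directions, 1102 genes (9.73%) were called the same way on both scales, 236 (2.08%) higher and 866 (7.65%) lower, and the other 484 genes higher on FPKM were not called on TPM. Of all calls 45.4% were higher on FPKM and 8.96% on TPM, so the balance of directions depends on the scaling while the genes lower on FPKM were lower on both. A rank test per gene (Wilcoxon, Benjamini-Hochberg) called 463 genes, 212 higher and 251 lower, and genes named below that it did not call are marked as such. Counts of 1 or 2 members of a list are given as counts only, since single libraries often move them. All list counts below are to be read against the shares of all genes given above, on TPM 2.09% higher and 21.3% lower. Counts of limma calls with 1 library left out ran between 1132, without vehicle replicate 7, and 1837, without vutiglabridin replicate 3.

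Most descriptions below rest on 134 genes (1.18% of those tested) that were called on both scales with no overlap between the 8 vutiglabridin and the 8 vehicle values on either. Of these, 28 (0.247%) were higher and 106 (0.936%) lower. On FPKM alone the groups did not overlap in 199 genes (1.76%), and on TPM alone in 272 (2.40%). Relative to the vehicle mean, the median of the 28 higher genes lay between 0.47 and 0.99 (log2) in the 8 vutiglabridin samples and between −0.17 and 0.19 in the 8 vehicle samples. For the 106 lower genes it lay between −0.87 and −0.40 in vutiglabridin and between −0.11 and 0.14 in vehicle samples. Vutiglabridin replicate 3 held the value nearest to vehicle for both sets. These genes were selected for the separation, so the distances describe them and test nothing. In what follows, levels are FPKM as lowest, median and highest of 8 or as mean ± SD (n = 8). Log2 changes are vutiglabridin minus vehicle on log2(FPKM + 1) with their standard errors, and TPM marks the log2 change on log2(TPM + 1). TPM values were larger than FPKM values, so the added 1 damped changes of low genes less on TPM. For low genes the changes on both scales therefore differ through the added 1 as well as through rescaling.

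**Figure D2:**
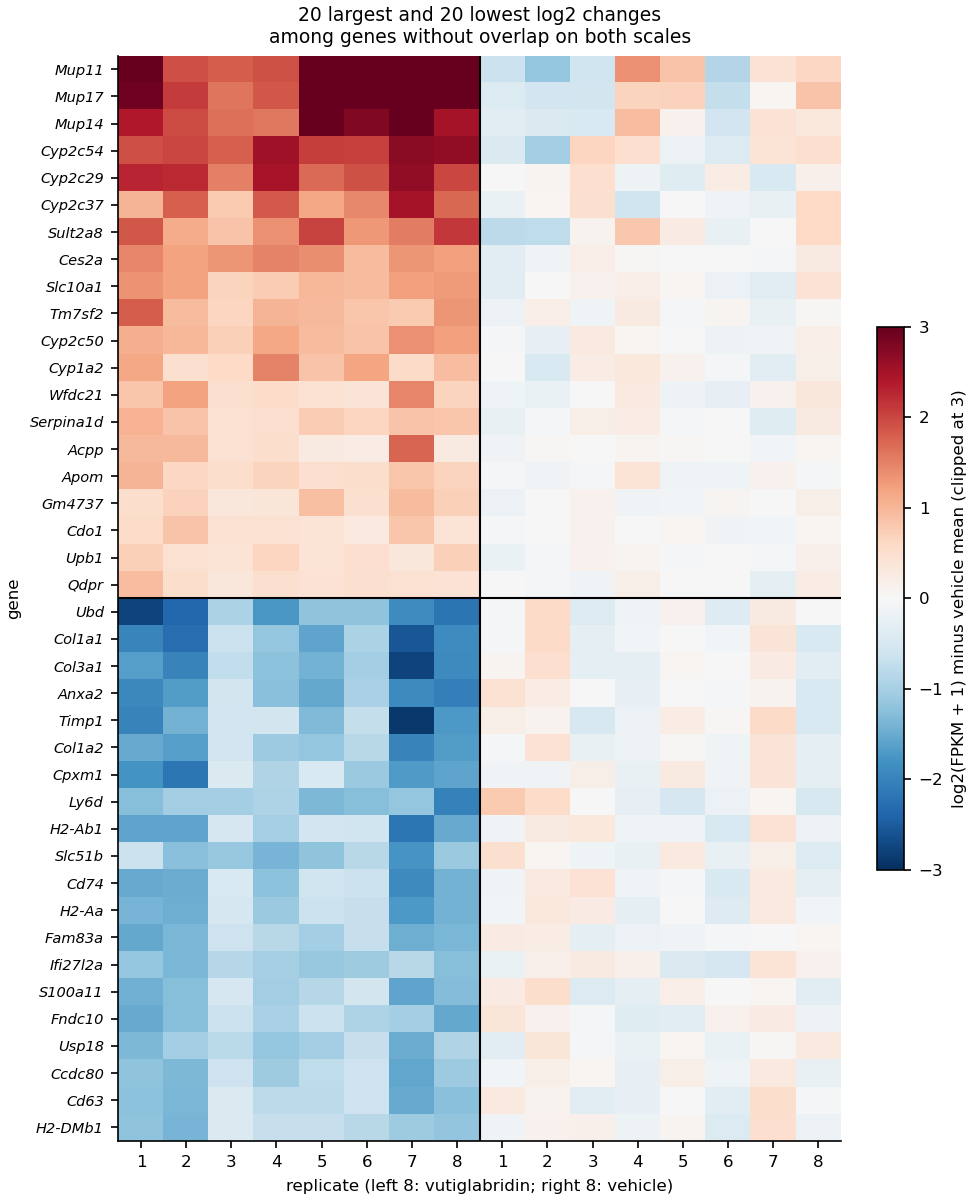
Log2(FPKM + 1) minus the vehicle mean (colour, clipped at 3) for the 20 largest and 20 lowest log2 changes among genes called on both scales without overlap, in rows, with vutiglabridin replicates 1 to 8 left and vehicle replicates 1 to 8 right of the black line. Every vutiglabridin value of the upper 20 is above, and of the lower 20 below, all 8 vehicle values.

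Some genes described below lay near the edge of the filter. Of the genes tested, 100 reached 0.5 FPKM in exactly 8 of the 16 samples (median of their mean levels 0.518 FPKM), and of those not tested 100 reached it in exactly 7 (median 0.492 FPKM). Only Acpp, with 0.61 to 3.63 FPKM in vutiglabridin and 0.29 to 0.46 FPKM in vehicle livers, and Sp110, with 0.02 to 0.47 FPKM in vutiglabridin and 0.50 to 0.99 FPKM in vehicle livers, passed through 1 group alone. Cdk1, Ptgds, Rbl1 and Uhrf1 averaged 0.34, 0.274, 0.42 and 0.31 FPKM in vutiglabridin livers, under the minimum of 0.5 FPKM. In vehicle livers they averaged 0.836, 1.05, 0.874 and 0.86 FPKM. The filter favours such genes where vehicle is high, so their lack of overlap describes them and tests nothing.

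Sulfotransferases, which attach sulfate to drugs, steroids and bile acids, had 5 of 10 tested genes higher and 1 lower in vutiglabridin livers, with a median log2 change of 0.44 (0.28 on TPM, with 3 higher and 2 lower). Sult2a8, a sulfotransferase of mouse liver that acts on bile acids, lies at chr7:14410686-14446769 (GRCm38, minus strand). The 8 vutiglabridin livers held 84.7 to 203 FPKM of Sult2a8 with a median of 129, and the 8 vehicle livers 26.1 to 81.3 FPKM with a median of 48.1. Its log2 change of 1.53 ± 0.23 had a limma adjusted p of 0.000439 and was 1.38 on TPM, and no vutiglabridin value overlapped a vehicle value. The nearby gene Sult2a7 had a lowest, median and highest level of 0.98, 2.44 and 8.12 FPKM in vutiglabridin livers, against 0.31, 0.61 and 1.01 FPKM in vehicle livers (log2 change 1.18 ± 0.23, TPM 1.5, limma adjusted p = 0.00265). Of its 8 vutiglabridin values 7 were above the highest vehicle value. Both genes belong to a family of close copies, and reads shared between copies could not be separated here. Sult1a1, which sulfonates phenols, averaged 243 ± 33.7 FPKM in vutiglabridin and 169.8 ± 26.02 FPKM in vehicle livers (log2 change 0.52 ± 0.10, TPM 0.36, limma adjusted p = 0.00304). The 5 higher members became 3 without vutiglabridin replicate 1 or without vehicle replicate 1, 2 or 3.

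Ces2a, a carboxylesterase that hydrolyses drugs and lipid esters, had the lowest p of the comparison and lies at chr8:104734003-104741634 (plus strand). Ces2a lay between 100.2 and 148 FPKM in vutiglabridin livers (median 131) and between 40.99 and 62.8 FPKM in vehicle livers (median 51.5). The log2 change was 1.30 ± 0.09 (SE; limma adjusted p = 9.31e-08), and 1.15 on TPM, without overlap. Cyp1a2, a cytochrome P450 that oxidises caffeine and aromatic amines, was 112 to 225 FPKM, median 149, in vutiglabridin livers and 57.7 to 99.3 FPKM, median 83.9, in vehicle livers (log2 change 0.91 ± 0.14, TPM 0.76, limma adjusted p = 0.000594). Its groups did not overlap either. Por, the reductase that supplies electrons to the microsomal P450 enzymes, lay between 90.05 and 207 FPKM with a median of 179.6 in vutiglabridin livers, against 63.6 to 142 FPKM with a median of 114 in vehicle livers (log2 change 0.60 ± 0.17, TPM 0.44, limma adjusted p = 0.0234). Here 7 of 8 vutiglabridin values exceeded the highest vehicle value, and the other, replicate 3, was below the vehicle median. Por was not called by the rank test or after quantile normalization. In the list of flavin monooxygenases, alcohol dehydrogenases and electron carriers that holds Por, 6 of 12 tested genes were higher and 0 lower (median 0.20), and 2 were higher and 1 lower on TPM (median 0.06). The 6 became 3 without vutiglabridin replicate 1 or without vehicle replicate 3 or 7.

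Of 19 tested SLCO and SLC22 carriers, which move organic anions and cations across the hepatocyte surface, 8 were higher and 1 lower (4 and 2 on TPM), with a median of 0.19 (0.04 on TPM). Slco1a1, an organic anion carrier, had a lowest, median and highest level of 9.06, 25.7 and 50.2 FPKM in vutiglabridin livers, against 3.01, 5.24 and 16.8 FPKM in vehicle livers (log2 change 1.75 ± 0.33, TPM 1.70, limma adjusted p = 0.00236). Its groups overlapped, since 4 of 8 vutiglabridin values exceeded the highest vehicle value, that of replicate 4, and the rank test did not call it. Slco1a4, a related carrier, averaged 13.9 ± 2.995 FPKM in vutiglabridin and 8.69 ± 1.43 FPKM in vehicle livers (log2 change 0.61 ± 0.11, TPM 0.49, limma adjusted p = 0.00198). The 8 higher carriers became 5 without 1 of vutiglabridin replicates 1, 2 and 8 or vehicle replicates 1 and 7. Slc10a1, outside that list, is the sodium-dependent carrier that takes bile acids up from portal blood and lies at chr12:80953183-80968705 (minus strand). Its lowest, median and highest levels were 236, 321 and 381 FPKM in the 8 vutiglabridin livers, against 118, 152 and 203 FPKM in the 8 vehicle livers. Its log2 change of 1.05 ± 0.12 had a limma adjusted p of 6.37e-05 and was 0.90 on TPM, with all 8 vutiglabridin values above all vehicle values.

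Amino acid transporters had 7 of 23 tested genes higher and 1 lower on FPKM, and 2 higher and 6 lower on TPM. Over all genes 6.36% were higher and 7.65% lower on FPKM, and 2.09% higher and 21.3% lower on TPM. The 6 of 23 transporters lower on TPM are near that last share. Slc6a12, a carrier of betaine and GABA, averaged 28.2 ± 3.24 FPKM in vutiglabridin and 19.9 ± 1.38 FPKM in vehicle livers (log2 change 0.47 ± 0.07, TPM 0.33, limma adjusted p = 0.000285). It separated the groups on both scales. Slc16a10, a carrier of aromatic amino acids, averaged 22.3 ± 4.92 FPKM in vutiglabridin and 15.03 ± 2.28 FPKM in vehicle livers (log2 change 0.53 ± 0.12, TPM 0.39, limma adjusted p = 0.00696) and was not called by the rank test. The 7 higher members became 3 without vutiglabridin replicate 8 or vehicle replicate 1 or 7, and 4 without vehicle replicate 2.

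In the methionine cycle and the folate enzymes coupled to it, 11 of 29 tested genes were higher and 1 lower, with a median of 0.21 (10 higher, 3 lower and a median of 0.05 on TPM). Over all genes the medians were 0.01 on FPKM and −0.13 on TPM. Gnmt, at chr17:46725664-46729168 (minus strand), uses S-adenosylmethionine to methylate glycine. The 8 vutiglabridin livers held 872 to 1422 FPKM of Gnmt with a median of 1098, and the 8 vehicle livers 447 to 880.0 FPKM with a median of 629. The log2 change was 0.86 ± 0.13 (SE; limma adjusted p = 0.000373), and 0.70 on TPM. Of the vutiglabridin values 7 of 8 were above the highest vehicle value. Ahcy, which removes the S-adenosylhomocysteine that methylation leaves, was 143 to 218 FPKM, median 193, in vutiglabridin livers and 88.2 to 155 FPKM, median 126, in vehicle livers (log2 change 0.64 ± 0.10, TPM 0.48, limma adjusted p = 0.000594). In both genes the value inside the vehicle range was that of replicate 3. Aldh1l1, which oxidises formyl-folate in the cytosol, averaged 298 ± 46.3 FPKM in vutiglabridin and 202 ± 26.05 FPKM in vehicle livers (log2 change 0.56 ± 0.10, TPM 0.40, limma adjusted p = 0.00123). Mthfd1, the trifunctional folate enzyme of the cytosol, averaged 64.6 ± 6.27 FPKM in vutiglabridin and 50.97 ± 3.58 FPKM in vehicle livers (log2 change 0.33 ± 0.06, TPM 0.18, limma adjusted p = 0.00217). Neither overlapped between groups on FPKM. The single lower member was Mthfd1l, the mitochondrial relative of Mthfd1. Mthfd1l lay between 0.33 and 1.24 FPKM in vutiglabridin livers (median 1.03) and between 1.34 and 2.05 FPKM in vehicle livers (median 1.75). Its log2 change of −0.55 ± 0.10 had a limma adjusted p of 0.00226 and was −0.92 on TPM, with no overlap. Leaving out single libraries gave 10 to 14 higher members, and quantile normalization gave 6.

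Tryptophan breakdown and NAD synthesis had 6 of 20 tested genes higher and 0 lower (median 0.17), and 4 higher and 1 lower on TPM (median 0.02). Ido2, which opens the indole ring, lay between 22.9 and 30.4 FPKM with a median of 26.2 in vutiglabridin livers, against 14.2 to 21.3 FPKM with a median of 20.1 in vehicle livers (log2 change 0.47 ± 0.08, TPM 0.33, limma adjusted p = 0.00161). Its groups did not overlap on FPKM. Afmid, the formamidase of the following step, averaged 10.5 ± 1.83 FPKM in vutiglabridin and 6.40 ± 1.27 FPKM in vehicle livers (log2 change 0.64 ± 0.12, TPM 0.54, limma adjusted p = 0.00186). Haao, further along the route to NAD, averaged 119.5 ± 14.5 FPKM in vutiglabridin and 89.6 ± 10.99 FPKM in vehicle livers (log2 change 0.41 ± 0.08, TPM 0.26, limma adjusted p = 0.00307). Acmsd, which diverts the route away from NAD, averaged 10.8 ± 3.33 FPKM in vutiglabridin and 6.599 ± 1.24 FPKM in vehicle livers (log2 change 0.61 ± 0.15, TPM 0.50, limma adjusted p = 0.0116), and the rank test did not call it. Leaving out single libraries gave 6 to 8 higher members.

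Single genes of other amino acid and pyrimidine routes follow, which stand for no list. Cdo1, cysteine dioxygenase, which commits cysteine to taurine and sulfate, had a lowest, median and highest level of 929, 1036 and 1371 FPKM in vutiglabridin livers, against 698, 759.5 and 833 FPKM in vehicle livers (log2 change 0.53 ± 0.08, TPM 0.37, limma adjusted p = 0.000535). Upb1, which completes the breakdown of uracil and thymine, was 44.9 to 57.98 FPKM, median 49.5, in vutiglabridin livers and 30.4 to 39.2 FPKM, median 34.3, in vehicle livers (log2 change 0.52 ± 0.07, TPM 0.37, limma adjusted p = 0.000148). Qdpr, which regenerates the tetrahydrobiopterin used by phenylalanine hydroxylase, averaged 309 ± 42.8 FPKM in vutiglabridin and 216 ± 23.3 FPKM in vehicle livers (log2 change 0.51 ± 0.08, TPM 0.35, limma adjusted p = 0.000779). Gchfr, the feedback regulator of the enzyme that starts tetrahydrobiopterin synthesis, averaged 125 ± 16.1 FPKM in vutiglabridin and 90.4 ± 10.8 FPKM in vehicle livers (log2 change 0.47 ± 0.08, TPM 0.31, limma adjusted p = 0.00136). In these 4 genes no vutiglabridin value fell inside the vehicle range on either scale. Of 23 genes of branched-chain amino acid breakdown 8 were higher and 0 lower on FPKM, and 2 higher and 1 lower on TPM. Ivd, the dehydrogenase of the leucine branch, averaged 37.6 ± 4.29 FPKM in vutiglabridin and 28.7 ± 2.58 FPKM in vehicle livers (log2 change 0.37 ± 0.07, TPM 0.23, limma adjusted p = 0.00292) and was not called by the rank test. The 8 became 5 without 1 of vutiglabridin replicates 1, 2 and 8 or vehicle replicates 1, 2 and 3.

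Of 8 hepatocyte markers 3 were higher and 0 lower, with a summed level of 37538 to 51928 FPKM in vutiglabridin and 33327 to 41773 FPKM in vehicle livers. None of the 8 was at 0, and their part in the increases described above was not tested. Apom, the apolipoprotein that carries sphingosine-1-phosphate, lay between 99.6 and 141 FPKM with a median of 109 in vutiglabridin livers, against 63.7 to 93.2 FPKM with a median of 66.7 in vehicle livers (log2 change 0.67 ± 0.09, TPM 0.52, limma adjusted p = 0.000148). Serpina1d, a mouse copy of alpha-1-antitrypsin whose near-identical copies share reads, averaged 1454 ± 199 FPKM in vutiglabridin and 868 ± 127 FPKM in vehicle livers (log2 change 0.75 ± 0.10, TPM 0.59, limma adjusted p = 0.000243). Wfdc21, a small secreted protein with a whey acidic protein domain, averaged 908 ± 272 FPKM in vutiglabridin and 523 ± 85.7 FPKM in vehicle livers (log2 change 0.76 ± 0.15, TPM 0.60, limma adjusted p = 0.00243). These 3 secreted proteins separated the groups on both scales. Slc27a5, which activates bile acids for conjugation, averaged 474 ± 48.3 FPKM in vutiglabridin and 338 ± 43.8 FPKM in vehicle livers (log2 change 0.49 ± 0.08, TPM 0.33, limma adjusted p = 0.0011). Selenbp1, a methanethiol oxidase, averaged 136 ± 16.8 FPKM in vutiglabridin and 97.4 ± 7.83 FPKM in vehicle livers (log2 change 0.48 ± 0.07, TPM 0.32, limma adjusted p = 0.000538). Gjb1, the main gap junction protein of hepatocytes, averaged 335 ± 26.8 FPKM in vutiglabridin and 255 ± 24.8 FPKM in vehicle livers (log2 change 0.39 ± 0.07, TPM 0.24, limma adjusted p = 0.00112). These 3 cellular proteins likewise did not overlap. Cat, catalase, averaged 1113 ± 56.1 FPKM in vutiglabridin and 895 ± 76.4 FPKM in vehicle livers (log2 change 0.32 ± 0.06, TPM 0.16, limma adjusted p = 0.00307). Apoh, a phospholipid-binding plasma protein, averaged 1378 ± 103 FPKM in vutiglabridin and 1050.0 ± 83.1 FPKM in vehicle livers (log2 change 0.39 ± 0.07, TPM 0.23, limma adjusted p = 0.00109). Neither overlapped, but quantile normalization ended both calls and left Cat at a log2 change of −0.01.

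Of 26 tested growth factor ligands and receptors 6 were higher and 5 lower on FPKM, and 2 higher and 8 lower on TPM. Over all genes the shares were 6.36% and 7.65% on FPKM, and 2.09% and 21.3% on TPM. Egfr, the receptor for epidermal growth factor, had a lowest, median and highest level of 17.9, 30.2 and 48.1 FPKM in vutiglabridin livers, against 11.4, 14.03 and 29.6 FPKM in vehicle livers (log2 change 1.02 ± 0.20, TPM 0.90, limma adjusted p = 0.00269). Only 4 of 8 vutiglabridin values lay above the highest vehicle value, which was replicate 4. Fgf1, a fibroblast growth factor, averaged 22.8 ± 4.84 FPKM in vutiglabridin and 15.7 ± 2.26 FPKM in vehicle livers (log2 change 0.49 ± 0.13, TPM 0.35, limma adjusted p = 0.0155). Pdgfrb, a receptor of stellate cells and pericytes, averaged 5.72 ± 1.41 FPKM in vutiglabridin and 8.15 ± 1.19 FPKM in vehicle livers (log2 change −0.46 ± 0.12, TPM −0.66, limma adjusted p = 0.0127). The rank test called none of these 3. The 6 higher members became 3 without vutiglabridin replicate 1 or vehicle replicate 5 or 7. The 5 lower members became 2 without vehicle replicate 1, and 3 without vutiglabridin replicate 1, 2 or 8 or vehicle replicate 2, 5 or 7.

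**Figure D3:**
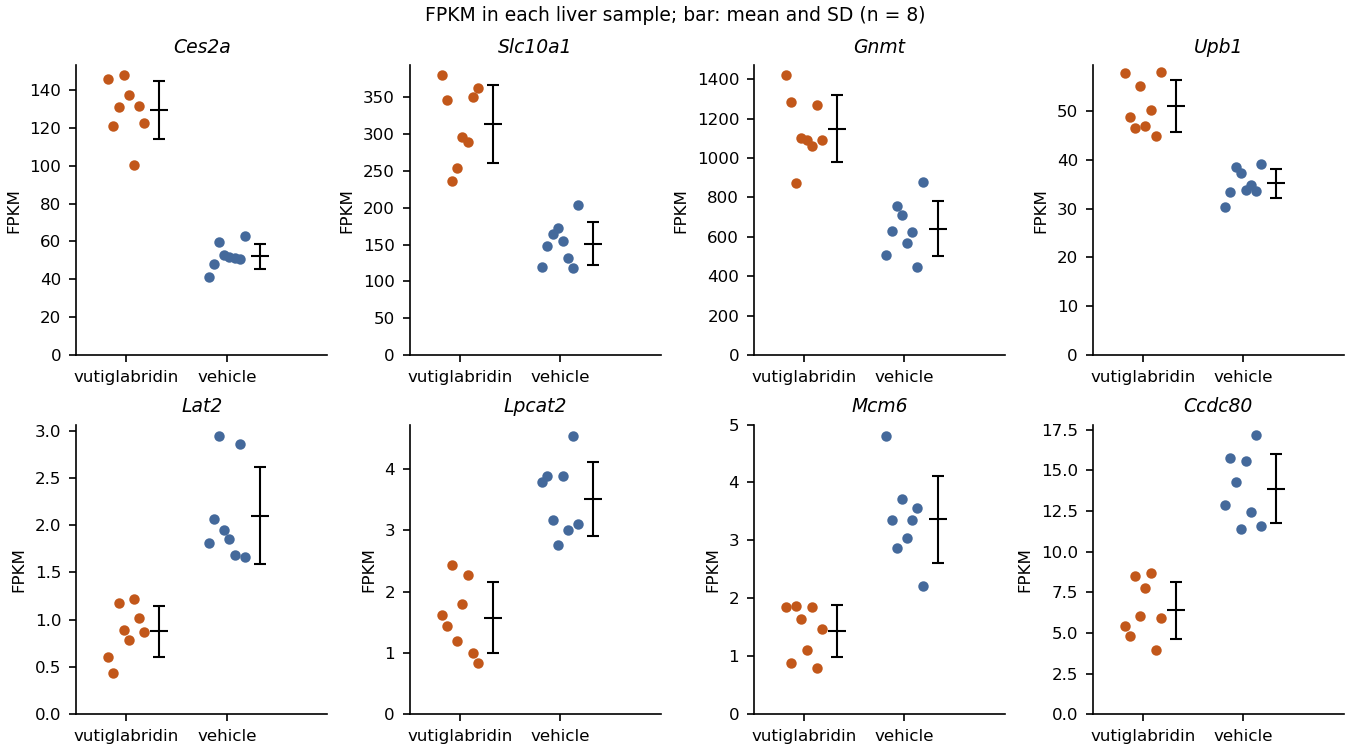
FPKM of 8 genes in every sample, vutiglabridin in orange on the left and vehicle in blue on the right of each panel, with the mean and SD (n = 8) beside the points and axes that start at 0. The upper 4 genes were higher and the lower 4 lower in vutiglabridin livers, and only Gnmt has a vutiglabridin value inside the vehicle range.

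Of 20 tested genes of Fc receptors and ITAM signalling, which phagocytes use to sense antibody and dying cells, 12 were lower and 0 higher in vutiglabridin livers. All 20 estimates were negative, with a median of −0.46 (19 lower and a median of −0.73 on TPM), and leaving out single libraries gave 12 to 15. The decrease was not shared evenly by the vutiglabridin samples. When left out, replicate 3 lay on its own side for 2 of the 13 members called without it, and replicate 6 for 3 of 15. Replicate 4 lay there for 10 of 13, and the remaining replicates for at least 11 of 12 or 13. Lat2, an adaptor of myeloid and B cells at chr5:134600022-134615025 (minus strand), was 0.44 to 1.22 FPKM, median 0.88, in vutiglabridin livers and 1.66 to 2.94 FPKM, median 1.90, in vehicle livers. The log2 change was −0.72 ± 0.10 (SE; limma adjusted p = 0.000292), and −1.13 on TPM, and all 8 vutiglabridin values lay under the vehicle range. Btk, a kinase of the same cells, lay between 0.43 and 1.17 FPKM with a median of 0.665 in vutiglabridin livers, against 1.03 to 1.89 FPKM with a median of 1.36 in vehicle livers (log2 change −0.51 ± 0.09, TPM −0.87, limma adjusted p = 0.00135). The highest vutiglabridin value was that of replicate 3, and the other 7 lay under every vehicle value. Fcgr1, the high-affinity receptor for IgG, averaged 2.36 ± 0.786 FPKM in vutiglabridin and 4.66 ± 1.21 FPKM in vehicle livers (log2 change −0.76 ± 0.15, TPM −1.05, limma adjusted p = 0.00294). Tyrobp, the ITAM adaptor of Trem2 and other receptors, averaged 23.6 ± 6.82 FPKM in vutiglabridin and 38.9 ± 13.1 FPKM in vehicle livers (log2 change −0.70 ± 0.17, TPM −0.87, limma adjusted p = 0.0125) and was not called by the rank test. In bulk tissue fewer cells of a type and less RNA per cell cannot be told apart. Of 5 markers of monocyte-derived macrophages all 4 tested were lower, with a summed level of 5.39 to 11.8 FPKM in vutiglabridin and 12.1 to 18.4 FPKM in vehicle livers. None of the 5 was at 0 in all samples, and their part in these decreases was not tested. Of 5 markers of resident Kupffer cells 0 of the 4 tested were called, with sums of 62.2 to 188 FPKM in vutiglabridin and 80.5 to 304 FPKM in vehicle livers.

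The 7 genes of the phagocyte NADPH oxidase, which makes superoxide, had 4 members lower on FPKM and 7 on TPM (medians −0.44 and −0.68), and 0 higher. Cybb, its catalytic subunit, had a lowest, median and highest level of 4.18, 5.495 and 7.43 FPKM in vutiglabridin livers, against 7.17, 8.88 and 12.99 FPKM in vehicle livers (log2 change −0.67 ± 0.12, TPM −0.88, limma adjusted p = 0.00134). Of the 8 vutiglabridin values 7 were under the lowest vehicle value. When left out, vutiglabridin replicate 6 lay on its own side for 1 of the 6 members called without it. Replicates 3 and 4 each lay there for 2 of 5, and the remaining replicates for all or all but 1 of theirs. The 4 lower members ran between 1 and 6 over the 16 fits with a library left out, and those without vutiglabridin replicate 1, 2, 7 or 8 or vehicle replicate 1, 2, 3 or 7 moved it by more than 1.5 times.

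Of 48 tested genes of actin filaments and actin-binding proteins 21 were lower and 0 higher, with a median of −0.23 (37 lower and −0.40 on TPM). Tmsb10, a thymosin that binds actin monomers, was 4.75 to 9.99 FPKM, median 7.005, in vutiglabridin livers and 11.3 to 21.4 FPKM, median 13.6, in vehicle livers (log2 change −0.88 ± 0.15, TPM −1.09, limma adjusted p = 0.00103). Tpm1, a tropomyosin that lies along filaments, lay between 7.97 and 10.6 FPKM with a median of 9.18 in vutiglabridin livers, against 11.3 to 15.1 FPKM with a median of 12.3 in vehicle livers (log2 change −0.43 ± 0.07, TPM −0.61, limma adjusted p = 0.00067). Both separated the groups fully on both scales. Tagln2, a transgelin, averaged 19.2 ± 4.796 FPKM in vutiglabridin and 29.7 ± 4.21 FPKM in vehicle livers (log2 change −0.62 ± 0.12, TPM −0.80, limma adjusted p = 0.00289). Tmsb4x, the more abundant thymosin, averaged 135 ± 30.5 FPKM in vutiglabridin and 208 ± 50.8 FPKM in vehicle livers (log2 change −0.62 ± 0.14, TPM −0.78, limma adjusted p = 0.00783). Coro1a, a coronin of leukocytes, averaged 4.904 ± 1.68 FPKM in vutiglabridin and 9.19 ± 2.399 FPKM in vehicle livers (log2 change −0.81 ± 0.17, TPM −1.04, limma adjusted p = 0.00477). The rank test did not call these 3, and vutiglabridin replicate 3 had the highest value of its group in Tmsb4x and Coro1a. The 21 lower members became 13 without vutiglabridin replicate 2 or 8 or vehicle replicate 1, and 12 without vehicle replicate 7. When left out, vutiglabridin replicate 3 lay on its own side for 5 of the 21 members called without it. Replicate 4 lay there for 9 of 23, replicate 6 for 10 of 21, and the remaining replicates for all or all but 1 of theirs.

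Of 9 tested galectins and Siglecs, proteins that bind sugars at the cell surface, 4 were lower and 0 higher on both scales. Lgals1, a secreted galectin, had a lowest, median and highest level of 43.9, 67.5 and 87.3 FPKM in vutiglabridin livers, against 90.1, 113 and 129.5 FPKM in vehicle livers (log2 change −0.77 ± 0.13, TPM −0.93, limma adjusted p = 0.0011). Lgals3, the galectin of activated macrophages, averaged 9.49 ± 3.47 FPKM in vutiglabridin and 19.6 ± 7.11 FPKM in vehicle livers (log2 change −0.99 ± 0.20, TPM −1.19, limma adjusted p = 0.004). Lgals3bp, its secreted partner, averaged 35.05 ± 4.07 FPKM in vutiglabridin and 50.2 ± 6.89 FPKM in vehicle livers (log2 change −0.50 ± 0.08, TPM −0.67, limma adjusted p = 0.00106). Lgals1 and Lgals3bp separated the groups, and Lgals3 had 6 of 8 vutiglabridin values under the vehicle range. Lgals9, a galectin that binds T cells, did not pass, with 257 ± 28.7 FPKM in vutiglabridin and 231 ± 22.7 FPKM in vehicle livers (log2 change 0.15 ± 0.08, TPM −0.01, limma adjusted p = 0.212). Of 19 tested tetraspanins 4 were lower and 2 higher (9 and 0 on TPM), where 7.65% of all genes were lower on FPKM and 21.3% on TPM. Cd63, a tetraspanin of late endosomes and exosomes, was 5.22 to 12.2 FPKM, median 7.96, in vutiglabridin livers and 13.1 to 24.8 FPKM, median 16.6, in vehicle livers (log2 change −0.99 ± 0.16, TPM −1.21, limma adjusted p = 0.000712), without overlap. Cd9, a surface tetraspanin, averaged 20.5 ± 3.02 FPKM in vutiglabridin and 28.97 ± 4.53 FPKM in vehicle livers (log2 change −0.48 ± 0.10, TPM −0.65, limma adjusted p = 0.00327) and was not called by the rank test. Of 17 integrins 6 were lower and 1 higher (8 and 0 on TPM), against the same 7.65% and 21.3% of all genes lower.

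A pair of calcium-binding proteins stood among the 20 lowest changes. Anxa2, an annexin, lay between 9.95 and 29.9 FPKM with a median of 13.9 in vutiglabridin livers, against 32.2 to 61.05 FPKM with a median of 43.7 in vehicle livers (log2 change −1.48 ± 0.19, TPM −1.68, limma adjusted p = 0.000124). Vutiglabridin replicate 3 had the highest value of its group, 29.9 FPKM, just under the lowest vehicle value. S100a11, an S100 protein, averaged 25.7 ± 7.72 FPKM in vutiglabridin and 54.3 ± 12.7 FPKM in vehicle livers (log2 change −1.07 ± 0.16, TPM −1.24, limma adjusted p = 0.000539), without overlap.

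Of 35 tested phospholipid genes 2 were lower and 0 higher on FPKM, and of 30 sphingolipid genes 1 and 0, where 7.65% of all genes were lower. On TPM 8 phospholipid and 6 sphingolipid genes were lower and 0 higher, near the 21.3% of all genes that were lower on that scale. Lpcat2, at chr8:92855339-92919279 (plus strand), makes platelet-activating factor in inflammatory cells. Its lowest, median and highest levels were 0.84, 1.53 and 2.44 FPKM in the 8 vutiglabridin livers, against 2.76, 3.47 and 4.54 FPKM in the 8 vehicle livers. Its log2 change of −0.83 ± 0.12 had a limma adjusted p of 0.000373 and was −1.18 on TPM, without overlap. Smpd3, a neutral sphingomyelinase, averaged 3.42 ± 0.718 FPKM in vutiglabridin and 6.11 ± 0.886 FPKM in vehicle livers (log2 change −0.69 ± 0.10, TPM −0.93, limma adjusted p = 0.000285), without overlap on FPKM. Of 18 tested eicosanoid genes 5 were lower and 1 higher (7 and 1 on TPM). Alox5ap, needed by 5-lipoxygenase, averaged 2.501 ± 0.68 FPKM in vutiglabridin and 3.57 ± 0.408 FPKM in vehicle livers (log2 change −0.41 ± 0.11, TPM −0.63, limma adjusted p = 0.0169). Hpgds, a prostaglandin D synthase of blood cells, averaged 0.629 ± 0.282 FPKM in vutiglabridin and 1.12 ± 0.236 FPKM in vehicle livers (log2 change −0.40 ± 0.10, TPM −0.74, limma adjusted p = 0.0129). The rank test called neither. The lipocalin-type synthase Ptgds lay between 0 and 0.56 FPKM in vutiglabridin livers (listed at 0 in replicate 7) and between 0.59 and 2.14 FPKM in vehicle livers (log2 change −0.66 ± 0.12, TPM −1.23, limma adjusted p = 0.00173). The higher member was Cyp2j5, a P450 that makes epoxides of arachidonic acid, which averaged 300.3 ± 34.96 FPKM in vutiglabridin and 229 ± 27.98 FPKM in vehicle livers (log2 change 0.39 ± 0.09, TPM 0.23, limma adjusted p = 0.00628) and was not called after quantile normalization.

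Glycolysis, glycogen and the tricarboxylic acid cycle had calls in both directions. Of 28 tested glycolysis genes 3 were higher and 3 lower, of 20 glycogen genes 2 and 3, and of 24 genes of the tricarboxylic acid cycle 6 and 1. Against the 6.36% higher and 7.65% lower of all genes, 6 of 24 higher cycle genes are 25.0%, and the count stayed at 6 with any 1 library left out. It did not hold under other processing, with 0 higher and 2 lower after quantile normalization. The rank test called 1 cycle gene higher and 1 lower. On TPM the counts became 1 and 12, 0 and 5, and 0 and 5, where 2.09% of all genes were higher and 21.3% lower. The 5 of 24 cycle genes lower on TPM are near that share of all genes. Hk2, a hexokinase that adult hepatocytes hardly use, had a lowest, median and highest level of 0.88, 1.36 and 2.82 FPKM in vutiglabridin livers, against 2.28, 2.79 and 3.54 FPKM in vehicle livers (log2 change −0.68 ± 0.12, TPM −1.02, limma adjusted p = 0.00133). Of the 8 vutiglabridin values 7 lay under the vehicle range, and replicate 6 at 2.82 FPKM did not. Pygb, the brain form of glycogen phosphorylase, averaged 2.23 ± 0.502 FPKM in vutiglabridin and 3.33 ± 0.59 FPKM in vehicle livers (log2 change −0.42 ± 0.10, TPM −0.66, limma adjusted p = 0.00852). The rank test called neither gene. Ldhd, which oxidises D-lactate, averaged 55.5 ± 11.2 FPKM in vutiglabridin and 38.1 ± 3.53 FPKM in vehicle livers (log2 change 0.51 ± 0.10, TPM 0.36, limma adjusted p = 0.0023), without overlap on FPKM. Targets of the nuclear receptor PPAR alpha had 3 of 26 tested genes higher and 4 lower (0 and 8 on TPM). Their higher members ran between 0 and 4 with single libraries left out. Genes of PPAR gamma and steatosis had 3 of 17 tested higher and 2 lower (1 and 8 on TPM). The former list holds Ucp2, the latter Cidec and Fabp5. Ucp2, a mitochondrial carrier, averaged 6.89 ± 1.41 FPKM in vutiglabridin and 11.7 ± 2.19 FPKM in vehicle livers (log2 change −0.68 ± 0.11, TPM −0.89, limma adjusted p = 0.000869). Cidec, a lipid droplet protein of steatotic hepatocytes, was 23.3 to 76.8 FPKM, median 51.9, in vutiglabridin livers and 70.7 to 93.8 FPKM, median 78.6, in vehicle livers (log2 change −0.69 ± 0.17, TPM −0.86, limma adjusted p = 0.0135) and was not called by the rank test. Fabp5, a fatty acid-binding protein, went the other way and lay between 3.98 and 20.1 FPKM with a median of 7.20 in vutiglabridin livers, against 2.02 to 3.98 FPKM with a median of 2.88 in vehicle livers (log2 change 1.16 ± 0.24, TPM 1.16, limma adjusted p = 0.0038). Of its 8 vutiglabridin values 7 were above every vehicle value.

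A set of 6 replication and cell cycle genes, chosen after their values were seen and standing for no tested list, is described with 2 members of the nucleotide list. Mcm6, a subunit of the helicase that opens DNA for replication, lies at chr1:128331590-128359664 (minus strand). The 8 vutiglabridin livers held 0.79 to 1.86 FPKM of Mcm6 with a median of 1.55, and the 8 vehicle livers 2.22 to 4.80 FPKM with a median of 3.35. The log2 change was −0.85 ± 0.12 (SE; limma adjusted p = 0.000292), and −1.21 on TPM. Mcm4, of the same ring, averaged 1.75 ± 0.347 FPKM in vutiglabridin and 3.15 ± 0.437 FPKM in vehicle livers (log2 change −0.60 ± 0.08, TPM −0.88, limma adjusted p = 0.000281). Mcm2, also of the ring, averaged 0.891 ± 0.153 FPKM in vutiglabridin and 1.57 ± 0.301 FPKM in vehicle livers (log2 change −0.44 ± 0.07, TPM −0.74, limma adjusted p = 0.00116). Every vutiglabridin value of these helicase genes lay under every vehicle value. Cdk1, the kinase that starts mitosis, had a lowest, median and highest level of 0.10, 0.335 and 0.55 FPKM in vutiglabridin livers, against 0.60, 0.79 and 1.15 FPKM in vehicle livers (log2 change −0.46 ± 0.07, TPM −0.89, limma adjusted p = 0.000847). Rbl1, a pocket protein that binds E2F factors, averaged 0.42 ± 0.143 FPKM in vutiglabridin and 0.874 ± 0.174 FPKM in vehicle livers (log2 change −0.40 ± 0.07, TPM −0.78, limma adjusted p = 0.00143). Uhrf1, which keeps DNA methylation through replication, averaged 0.31 ± 0.143 FPKM in vutiglabridin and 0.86 ± 0.259 FPKM in vehicle livers (log2 change −0.50 ± 0.09, TPM −0.97, limma adjusted p = 0.00124). These 3 were under 1 FPKM on average in both groups, where log2(FPKM + 1) understates a change. Ctps, which makes CTP, averaged 2.47 ± 0.589 FPKM in vutiglabridin and 3.76 ± 0.618 FPKM in vehicle livers (log2 change −0.47 ± 0.11, TPM −0.71, limma adjusted p = 0.00687). Dck, which phosphorylates salvaged deoxycytidine, averaged 1.96 ± 0.287 FPKM in vutiglabridin and 2.64 ± 0.403 FPKM in vehicle livers (log2 change −0.30 ± 0.08, TPM −0.51, limma adjusted p = 0.0145). All 8 genes lacked overlap on both scales. Of 36 tested genes of purine and pyrimidine synthesis and salvage 3 were lower and 1 higher on FPKM, against a background of 7.65% lower. On TPM 13 of the 36 were lower and 0 higher, against 21.3% of all genes lower.

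The start regions of 4 of these genes held the E2F site TTTCGCGC, and 2 lower interferon-induced genes held the interferon-stimulated response element, searched as GAAA, 2 free bases and GAAA, in RefSeq windows (GRCm38.p6) that span the gene start. Both strands were searched, a match on the other strand is printed as its reverse complement, and capitals mark the matches. They are shown as examples of the windows behind the motif counts that follow.
Mcm6 (chr1:128359656-128359955, minus strand): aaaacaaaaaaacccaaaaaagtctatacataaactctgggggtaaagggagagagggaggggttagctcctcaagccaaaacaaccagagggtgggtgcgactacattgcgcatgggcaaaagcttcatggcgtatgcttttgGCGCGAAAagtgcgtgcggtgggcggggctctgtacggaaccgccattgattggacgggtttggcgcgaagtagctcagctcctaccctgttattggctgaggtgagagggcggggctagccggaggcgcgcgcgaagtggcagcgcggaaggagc
Rbl1 (chr2:157204485-157204784, minus strand): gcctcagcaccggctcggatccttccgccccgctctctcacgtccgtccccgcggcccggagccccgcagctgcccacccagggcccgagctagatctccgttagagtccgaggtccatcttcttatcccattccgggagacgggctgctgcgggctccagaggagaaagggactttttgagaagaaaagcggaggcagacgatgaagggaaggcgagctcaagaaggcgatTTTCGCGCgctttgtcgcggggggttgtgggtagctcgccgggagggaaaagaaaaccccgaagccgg
Cdk1 (chr10:69352863-69353162, minus strand): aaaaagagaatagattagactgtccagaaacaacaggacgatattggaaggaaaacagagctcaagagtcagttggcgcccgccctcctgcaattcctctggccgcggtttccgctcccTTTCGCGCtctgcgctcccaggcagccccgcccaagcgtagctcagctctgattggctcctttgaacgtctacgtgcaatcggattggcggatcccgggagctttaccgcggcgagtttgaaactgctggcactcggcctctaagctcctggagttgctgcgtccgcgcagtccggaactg
Uhrf1 (chr17:56304063-56304362, plus strand): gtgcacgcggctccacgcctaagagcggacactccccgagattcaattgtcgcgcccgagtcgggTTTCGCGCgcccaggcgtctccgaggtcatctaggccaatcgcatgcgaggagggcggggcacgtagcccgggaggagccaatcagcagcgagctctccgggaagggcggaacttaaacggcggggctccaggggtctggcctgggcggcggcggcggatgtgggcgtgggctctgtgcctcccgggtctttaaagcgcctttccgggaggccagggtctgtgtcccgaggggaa
Oas1a (chr5:120907476-120907775, minus strand): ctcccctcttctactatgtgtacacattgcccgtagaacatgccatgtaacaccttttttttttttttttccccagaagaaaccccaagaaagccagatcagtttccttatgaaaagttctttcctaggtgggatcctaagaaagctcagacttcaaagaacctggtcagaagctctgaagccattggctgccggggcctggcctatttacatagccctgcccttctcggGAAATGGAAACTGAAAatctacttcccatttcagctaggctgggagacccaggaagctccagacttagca
Trim30a (chr7:104465144-104465443, minus strand): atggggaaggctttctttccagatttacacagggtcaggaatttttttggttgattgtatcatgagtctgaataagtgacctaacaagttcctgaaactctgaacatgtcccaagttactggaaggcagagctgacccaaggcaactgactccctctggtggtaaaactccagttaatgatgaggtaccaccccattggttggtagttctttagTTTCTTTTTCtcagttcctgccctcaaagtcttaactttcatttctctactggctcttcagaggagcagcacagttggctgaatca
Of the 106 lower genes without overlap 76 had a window, and 5 of these (6.58%) held the E2F site, against 68 of 9011 windows of all tested genes (0.755%). The fifth was Adamts2. Among the 5, Cdk1, Rbl1 and Uhrf1 averaged above the filter minimum of 0.5 FPKM in vehicle livers only. Over all genes called on FPKM the E2F share was smaller, with 12 of 665 windows of lower genes (1.80%) and 5 of 586 windows of higher genes (0.853%). The interferon element was in 5 of 76 (6.58%) and in 346 of 9011 (3.84%), and in Oas1a 2 matches overlapped. The 5 were Fbn1, which is described below with the genes of matrix handling, Oas1a, Slfn8, Trim30a and Wls. Usp18 and Ifi27l2a were not among them, and whether they had a window is not given here. Of all called genes, 48 of 665 windows of lower genes (7.22%) and 20 of 586 of higher genes (3.41%) held it. Among the 28 higher genes 24 had a window, of which 0 held the E2F site and 1, that of Sult2a8, the interferon element. The other motifs are given for all of these gene sets. The HNF4 site CNAAGTCCA was in 1 of the 76 windows, in 1 of the 24, in 8 of the 665 of genes called lower (1.20%), in 18 of the 586 of genes called higher (3.07%) and in 133 of all 9011 (1.48%). The Ets and PU.1 core GAGGAAGT was in 2 of the 76 (2.63%), in 0 of the 24, in 45 of the 665 (6.77%), in 16 of the 586 (2.73%) and in 342 of all 9011 (3.80%). All lower calls were thus over the share of all genes, while 2 of 76 are too few to place that set against it. The same holds for the 5 of 76 with the interferon element. The Y box CTGATTGG was in 4 of the 76 (5.26%), in 3 of the 24 (12.5%), in 39 of the 665 (5.86%), in 49 of the 586 (8.36%) and in 557 of all 9011 (6.18%). Here too 3 of 24 are too few to place that set against all genes. The HNF1 site was in 0 of the 76, the 24 and the 586, in 1 of the 665 (0.15%) and in 9 of all 9011 (0.0999%). A match describes the letters of a window and is neither a binding site nor a cause.

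Oas1a, an interferon-induced sensor of double-stranded RNA, was 1.28 to 2.12 FPKM, median 1.69, in vutiglabridin livers and 2.48 to 4.14 FPKM, median 3.14, in vehicle livers (log2 change −0.63 ± 0.09, TPM −0.93, limma adjusted p = 0.000285). Trim30a, an interferon-induced gene of mouse, lay between 1.86 and 2.85 FPKM with a median of 2.37 in vutiglabridin livers, against 3.33 to 4.46 FPKM with a median of 4.04 in vehicle livers (log2 change −0.57 ± 0.07, TPM −0.83, limma adjusted p = 0.000124). Usp18, which removes the ubiquitin-like ISG15, averaged 2.59 ± 0.647 FPKM in vutiglabridin and 6.46 ± 1.26 FPKM in vehicle livers (log2 change −1.06 ± 0.12, TPM −1.36, limma adjusted p = 5.54e-05). In these genes every vutiglabridin value lay under every vehicle value on both scales. Ifi27l2a, an interferon-induced membrane protein, averaged 11.1 ± 1.602 FPKM in vutiglabridin and 25.2 ± 5.71 FPKM in vehicle livers (log2 change −1.09 ± 0.12, TPM −1.29, limma adjusted p = 6.37e-05), also without overlap.

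The 8 genes of matrix handling described here are single genes without overlap on both scales, not a count over a list, and all but Ccdc80 and Cpxm1 were chosen after their values were seen. Ccdc80, a secreted matrix-binding protein at chr16:45093402-45128077 (plus strand), had a lowest, median and highest level of 3.97, 5.99 and 8.67 FPKM in vutiglabridin livers, against 11.4, 13.6 and 17.2 FPKM in vehicle livers. Its log2 change of −1.03 ± 0.13 had a limma adjusted p of 0.000124 and was −1.26 on TPM. Cpxm1, a secreted carboxypeptidase-like protein, was 0.86 to 5.21 FPKM, median 2.31, in vutiglabridin livers and 5.78 to 9.96 FPKM, median 6.81, in vehicle livers (log2 change −1.27 ± 0.21, TPM −1.63, limma adjusted p = 0.00108). Its highest vutiglabridin value, 5.21 FPKM in replicate 3, stood apart from a median of less than 3 FPKM. Sparc, which binds collagen as it is laid down, averaged 21.6 ± 5.36 FPKM in vutiglabridin and 39.3 ± 6.36 FPKM in vehicle livers (log2 change −0.86 ± 0.13, TPM −1.03, limma adjusted p = 0.000538). Htra1, a secreted protease, averaged 2.47 ± 1.20 FPKM in vutiglabridin and 4.95 ± 0.829 FPKM in vehicle livers (log2 change −0.86 ± 0.19, TPM −1.19, limma adjusted p = 0.00701). Adamts2, which trims procollagen, averaged 1.83 ± 0.432 FPKM in vutiglabridin and 3.35 ± 0.506 FPKM in vehicle livers (log2 change −0.62 ± 0.10, TPM −0.91, limma adjusted p = 0.000528). These 3 act on or beside collagen. Loxl2, which cross-links collagen, averaged 1.05 ± 0.343 FPKM in vutiglabridin and 2.04 ± 0.289 FPKM in vehicle livers (log2 change −0.58 ± 0.10, TPM −0.93, limma adjusted p = 0.000847). Col15a1, a basement membrane collagen, averaged 2.81 ± 0.875 FPKM in vutiglabridin and 5.77 ± 0.777 FPKM in vehicle livers (log2 change −0.86 ± 0.14, TPM −1.15, limma adjusted p = 0.000791). Fbn1, the microfibril protein, averaged 0.632 ± 0.269 FPKM in vutiglabridin and 1.28 ± 0.15 FPKM in vehicle livers (log2 change −0.50 ± 0.09, TPM −0.89, limma adjusted p = 0.00198). Of 5 stellate cell markers 1 was lower and 0 higher, with sums of 29.6 to 56.2 FPKM in vutiglabridin and 41.4 to 76.1 FPKM in vehicle livers. None of the 5 was at 0 in all samples, and their part in these decreases was not tested. Of 19 tested targets of YAP and TEAD, regulators that respond to tissue stiffness, 5 were lower and 0 higher (9 and 0 on TPM). Over all genes 7.65% were lower on FPKM and 21.3% on TPM. In the YAP and TEAD list 3 were lower without vutiglabridin replicate 1 or 8 or vehicle replicate 7. Axl, a receptor kinase of that list, averaged 9.33 ± 1.61 FPKM in vutiglabridin and 14.3 ± 2.69 FPKM in vehicle livers (log2 change −0.56 ± 0.11, TPM −0.75, limma adjusted p = 0.00223).

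Among pumps of the bile route, Abcb4, which moves phosphatidylcholine into bile, lay between 37.5 and 45.1 FPKM with a median of 43.1 in vutiglabridin livers, against 49.2 to 53.6 FPKM with a median of 50.5 in vehicle livers (log2 change −0.28 ± 0.05, TPM −0.44, limma adjusted p = 0.00115). The difference was small, but no value overlapped. Abcb1a, a multidrug pump, averaged 2.35 ± 0.537 FPKM in vutiglabridin and 3.86 ± 0.615 FPKM in vehicle livers (log2 change −0.55 ± 0.10, TPM −0.80, limma adjusted p = 0.00198), also without overlap. Slc51b, a subunit of the basolateral bile acid exporter, had 1.17, 0.44, 0.56, 0.30, 0.47, 0.91, 0 and 0.59 FPKM in vutiglabridin replicates 1 to 8, against 3.75, 2.58, 2.12, 1.91, 3.18, 1.91, 2.84 and 1.56 FPKM in vehicle replicates 1 to 8. The log2 change was −1.17 ± 0.15 (SE; limma adjusted p = 0.000124), and −1.82 on TPM. Every vutiglabridin value, with replicate 7 listed at 0, was under the lowest vehicle value. Nfe2l2, the transcription factor of the antioxidant response, averaged 27.7 ± 1.84 FPKM in vutiglabridin and 33.97 ± 2.27 FPKM in vehicle livers (log2 change −0.28 ± 0.05, TPM −0.45, limma adjusted p = 0.00207), without overlap.

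Of 14 tested keratin and desmosome genes 5 were lower and 0 higher (8 and 0 on TPM), where 7.65% of all genes were lower on FPKM and 21.3% on TPM. The 5 became 3 without 1 of vutiglabridin replicates 1, 7 and 8 or vehicle replicates 1, 2, 4, 6 and 7. When left out, vutiglabridin replicates 4 and 6 each lay on their own side for 0 of the 4 members called without them. The remaining replicates each lay there for 3 of 3 to 5 members. Krt8, a keratin of hepatocytes and ducts, had a lowest, median and highest level of 142, 166 and 268 FPKM in vutiglabridin livers, against 223, 279.8 and 319 FPKM in vehicle livers (log2 change −0.55 ± 0.12, TPM −0.71, limma adjusted p = 0.00499) and was not called by the rank test. Ppl, a plakin of desmosomes, averaged 6.36 ± 1.61 FPKM in vutiglabridin and 10.02 ± 1.45 FPKM in vehicle livers (log2 change −0.60 ± 0.12, TPM −0.81, limma adjusted p = 0.00272). Ly6d, a surface protein of epithelia, was 31.5 to 69.1 FPKM, median 55.6, in vutiglabridin livers and 91.5 to 226 FPKM, median 124, in vehicle livers (log2 change −1.26 ± 0.18, TPM −1.43, limma adjusted p = 0.000313). In Ly6d the groups did not overlap. Of 5 bile duct markers 2 were lower, with sums of 69.6 to 193 FPKM in vutiglabridin and 154 to 339 FPKM in vehicle livers. Krt7, Krt19 and Epcam reached at most 1.24, 7.22 and 7.95 FPKM in any sample. Most of each sum therefore came from the remaining markers, Sox9 and Spp1. None of the 5 was at 0 in all samples, and their part here was not tested.

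Further single genes separated the groups. Cgref1, a secreted calcium-binding growth regulator, had the lowest p among the lower genes and lay between 1.48 and 2.39 FPKM with a median of 2.12 in vutiglabridin livers, against 3.64 to 5.79 FPKM with a median of 4.22 in vehicle livers (log2 change −0.87 ± 0.09, TPM −1.18, limma adjusted p = 2.67e-05). Fam83a, a scaffold protein linked to EGF receptor signalling, had a lowest, median and highest level of 2.70, 3.69 and 5.92 FPKM in vutiglabridin livers, against 7.95, 9.69 and 11.7 FPKM in vehicle livers (log2 change −1.12 ± 0.13, TPM −1.38, limma adjusted p = 8.37e-05). Fndc10, a fibronectin type III domain protein, was 0.13 to 1.12 FPKM, median 0.66, in vutiglabridin livers and 1.57 to 3.24 FPKM, median 2.395, in vehicle livers (log2 change −1.07 ± 0.14, TPM −1.67, limma adjusted p = 0.000181). In these 3 genes every vutiglabridin value lay under every vehicle value on both scales. Apoa4, an apolipoprotein of triglyceride-rich particles, lay between 1244 and 1779 FPKM with a median of 1438 in vutiglabridin livers, against 1981 to 3406 FPKM with a median of 2299 in vehicle livers (log2 change −0.67 ± 0.10, TPM −0.83, limma adjusted p = 0.000605), and it took more from the difference in total FPKM than any other gene. Of 14 tested inflammasome genes 3 were lower and 1 higher (6 and 1 on TPM), where 7.65% of all genes were lower on FPKM and 21.3% on TPM. Il1rn, the antagonist of interleukin-1, averaged 1.62 ± 0.437 FPKM in vutiglabridin and 2.71 ± 0.428 FPKM in vehicle livers (log2 change −0.51 ± 0.10, TPM −0.79, limma adjusted p = 0.00198). Nlrp12, the higher member, averaged 7.37 ± 2.04 FPKM in vutiglabridin and 4.22 ± 0.964 FPKM in vehicle livers (log2 change 0.66 ± 0.15, TPM 0.59, limma adjusted p = 0.00693) and was not called by the rank test.

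For the lists that follow, 6.36% of all genes were higher and 7.65% lower on FPKM, and 2.09% higher and 21.3% lower on TPM. Of 30 splicing factors 0 were higher and 0 lower on FPKM (0 and 8 on TPM), and of 43 translation factors 4 and 0 (0 and 6 on TPM). Of 16 peroxisome biogenesis genes 1 was higher on FPKM and 0 were called on TPM. Of 6 Hedgehog genes 0 were called on FPKM and 1 was lower on TPM. Of 19 Notch genes, and likewise of 16 genes of MAPK feedback, 1 was lower on FPKM and 3 on TPM. Among 23 junction genes 1 was higher on FPKM and 7 were lower on TPM. Of 33 nuclear receptors 4 were higher and 0 lower (0 and 2 on TPM), and 2 were higher without vehicle replicate 7. Of 31 chaperones 4 were higher and 0 lower on FPKM. Hspb6, a small heat shock protein, averaged 7.49 ± 0.63 FPKM in vutiglabridin and 5.82 ± 0.591 FPKM in vehicle livers (log2 change 0.32 ± 0.06, TPM 0.20, limma adjusted p = 0.0027). Hspb8, of the same family, averaged 139.7 ± 29.4 FPKM in vutiglabridin and 99.9 ± 12.9 FPKM in vehicle livers (log2 change 0.46 ± 0.12, TPM 0.31, limma adjusted p = 0.013). On TPM 2 chaperones were higher and 9 lower, and Hspb8 was not called by the rank test or after quantile normalization. The rank test, which uses only the order of the samples, called fewer members of the lists above, with 3 lower members against 12 with limma in Fc receptors and ITAM signalling, 4 against 21 in actin binding, 1 against 4 in the oxidase and 3 against 4 in galectins and Siglecs. For higher members the counts were 5 against 11 in the methionine and folate list, 4 against 6 in tryptophan breakdown, 3 against 5 among sulfotransferases, 3 against 8 among SLCO and SLC22 carriers and 2 against 8 in branched-chain amino acid breakdown. Other lists above fell too. Higher members were 1 against 7 in amino acid transporters and 1 against 6 in the list that holds Por. Among growth factors and receptors they were 0 against 6, and lower members 0 against 5. Lower members were 1 against 6 in integrins, 1 against 5 in keratins and desmosomes and 1 against 5 in eicosanoid genes. They were 1 against 4 in tetraspanins and 2 against 5 in YAP and TEAD targets. Quantile normalization left 3 of 7 higher amino acid transporters, 4 of 8 in branched-chain breakdown and 2 of 6 in the list that holds Por. In each of the last 2 lists it called 1 member lower. It left 4 of 5 higher sulfotransferases, 6 of 8 carriers and 5 of 6 in tryptophan breakdown. Lower members were 12 against 12 in Fc receptors and ITAM signalling, 25 against 21 in actin binding and 3 against 4 in the oxidase. A gene that did not pass the test may still differ by an amount the 8 samples per group could not show.

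**Figure D4:**
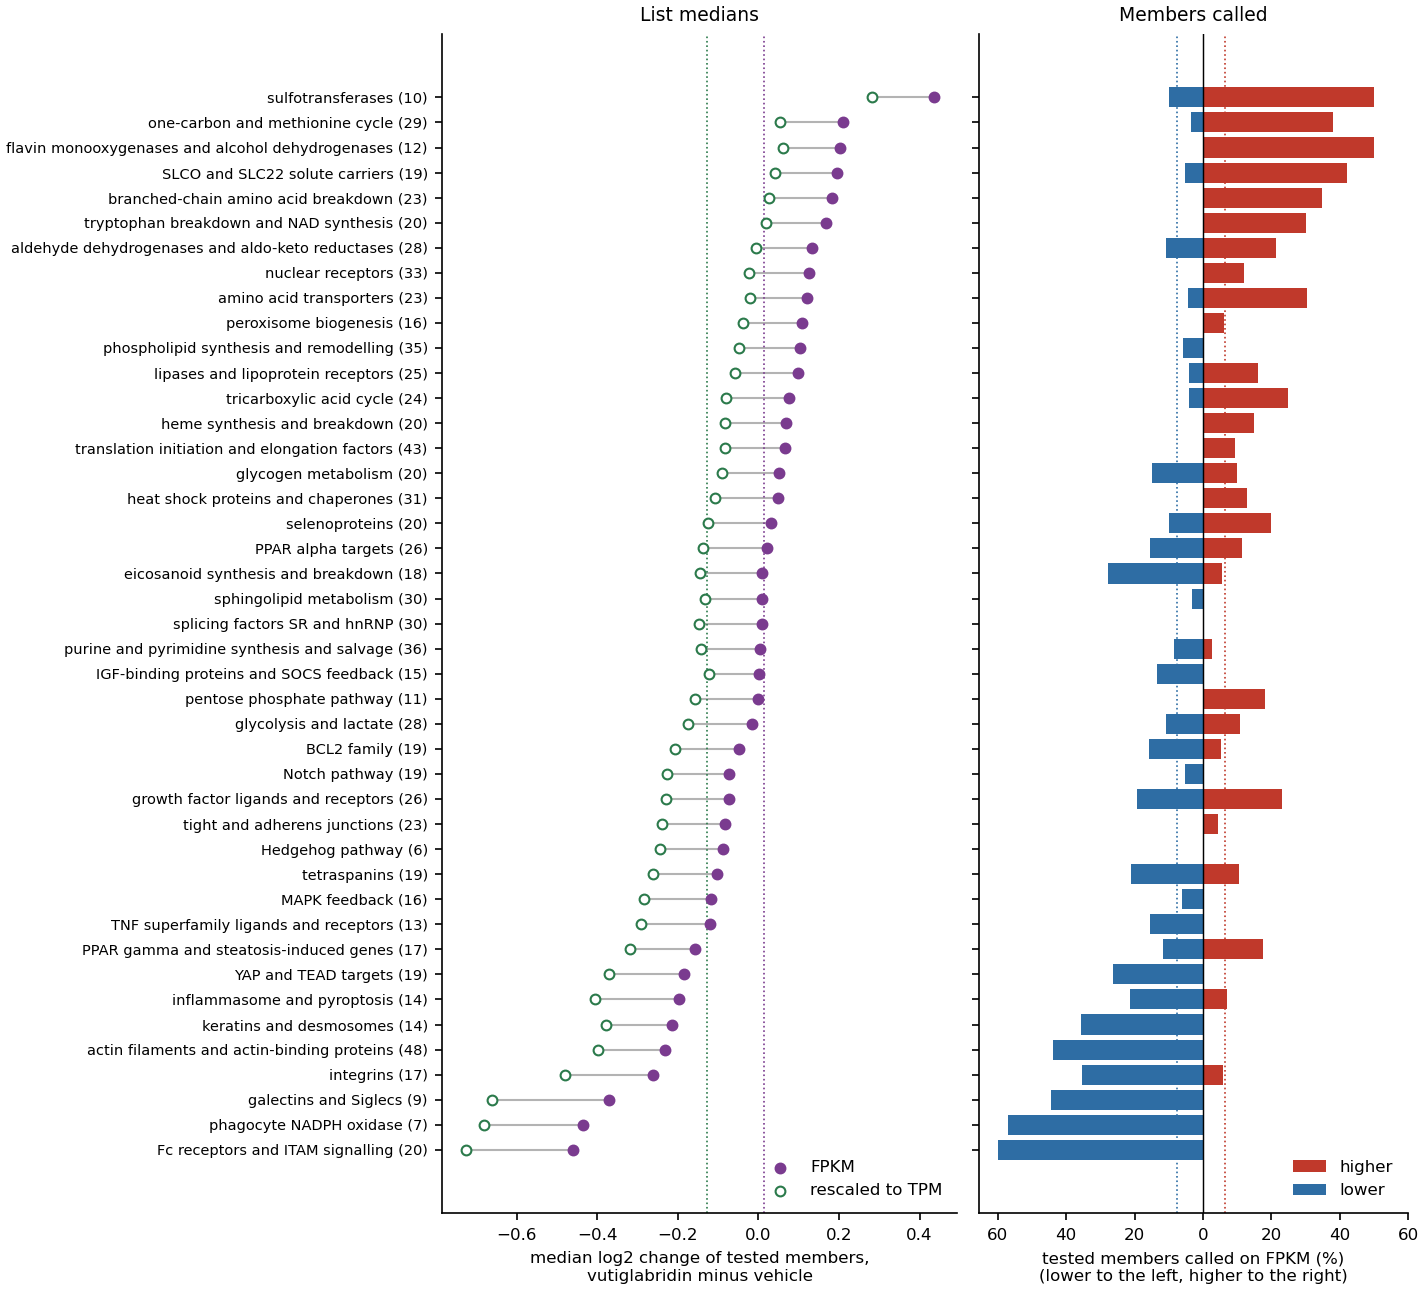
Left, median log2 change (vutiglabridin minus vehicle) of the tested members of 43 gene lists on FPKM (filled) and after rescaling to TPM (open), with the number tested in parentheses and dotted lines at the median of all genes, 0.01 and −0.13. Right, percentage of tested members called higher (red, to the right) or lower (blue, to the left) on FPKM, with dotted lines at 6.36% and 7.65% of all genes; the TPM median lies left of the FPKM median for every list.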

How the data were processed

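RNA of 16 mouse liver samples, 8 vutiglabridin and 8 vehicle by their treatment label, was analysed; the 8 columns of the remaining group of the series entered only the alternative with 24 samples. Stranded mRNA libraries, from RNA extracted with an RNeasy kit, were read as paired ends on a NovaSeq, per the labels' protocols. The table deposited by the authors holds 1 FPKM value per gene and sample. The submitters' processing notes list DESeq2, HISAT2 and StringTie without version or role. Which genome build was used, and whether genes were filtered, is not given in the sources used here. All 14293 identifiers matched GENCODE M21 (GRCm38), whose coordinates are printed.

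Values were taken as log2(FPKM + 1), which understates changes of low genes, where 8 or more of 16 samples reached 0.5 FPKM, and fitted by limma 3.58.1 (R 4.3.3; 2-sided moderated test, prior spread trended on the mean, Benjamini-Hochberg over 11324 genes, threshold 0.05). The script was tested on simulated data. TPM were made here by scaling each column over all rows to a sum of 1000000, and were fitted as log2(TPM + 1). FPKM depends on the total of the library, so abundant genes shift all others, and close copies depend on how shared reads were assigned. Low values lie on steps of 1 fragment, from which depth was read; sample totals were compared by an exact permutation test. Alternatives were pseudocounts of 0.1 and 0.5, other filters, TPM, quantile normalization, median centring, robust spread, sample weights, a Wilcoxon test, 24 samples, the replicate number as a block and each sample left out.

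The members and the 43 gene lists (1038 different genes, 918 tested) were chosen with earlier results of these data known. Named genes follow a rule: among genes called on FPKM and TPM without overlap and with a mean of at least 1 FPKM in 1 group (129 genes), the 20 largest and 20 lowest changes and the 10 lowest p per direction; per list the 4 called members with the lowest p, or the lowest p where none was called; and the 10 genes that add most to the difference in total FPKM and the 5 that take most from it. Of 106 genes examined in this way for the text 79 fall under it. The other 27 were chosen after their values were seen: Mthfd1l, Gchfr, Acmsd, Apoh, Cat, Gjb1, Slc27a5, Tmsb4x, Coro1a, Tyrobp, Lgals9, Mcm6, Cdk1, Rbl1, Uhrf1, Mcm2, Mcm4, Sparc, Htra1, Col15a1, Adamts2, Loxl2, Fbn1, Abcb4, Abcb1a, Nfe2l2 and Oas1a, as was Sp110. Promoter windows are from RefSeq (GRCm38.p6).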

Additional observations from a re-analysis of the deposited data

Results flagged for a closer look

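For the genes described, the total FPKM, the implied depth and the shares on the own side, 218 groups of 8 were checked for a sample whose gap to its nearest neighbour exceeds Dixon's 95% critical value as a share of the group's range. This held in 18 of them. For independent groups of normal values about 1 in 20 would be flagged. The groups here share samples, their genes can vary together, and FPKM need not be normal, so the 18 cannot be judged against that rate. Vehicle replicate 7 was the highest of its group in Tmsb10 (21.4 FPKM, next 14.1), Tmsb4x (324 FPKM, next 216), Tyrobp (70.5 FPKM, next 40.3), Lgals3 (35.5 FPKM, next 21.2), Ptgds (2.14 FPKM, next 1.27) and Hpgds (1.65 FPKM, next 1.15). Vehicle replicate 4 was the highest in Slco1a1 (16.8 FPKM, next 9.42), Egfr (29.7 FPKM, next 15.9) and Apom (93.2 FPKM, next 75.7), and vehicle replicate 2 in Apoa4 (3406 FPKM, next 2393).

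Vutiglabridin replicate 4 was the highest of its group in Gchfr (162 FPKM, next 132) and Apoa2 (11516 FPKM, next 9374). Vutiglabridin replicate 1 was the highest in Qdpr (412 FPKM, next 312), replicate 3 in Btk (1.17 FPKM, next 0.75) and replicate 6 in Hk2 (2.82 FPKM, next 1.61). Vutiglabridin replicate 7 was the highest in Sult2a7 (8.12 FPKM, next 4.19), the lowest in Col15a1 (0.95 FPKM, next 2.66) and the lowest in implied depth (5.96 in units of 1000000 fragments, next 12.0). The cause of these values was not tested.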

How the results depend on the processing

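The number of called genes was 1586 and moved by more than 1.5 times under 2 of the alternatives. On TPM 2644 genes were called, 237 higher and 2407 lower, and with Wilcoxon tests 463, 212 higher and 251 lower. Quantile normalization left 475 higher genes and 1237 in all. Pseudocounts of 0.1 and 0.5, no filter, a mean of at least 1 FPKM, median centring, a robust spread, sample weights and 24 samples in 1 fit gave 1437 to 1745. Leaving out 1 sample gave 1132 to 1837 called genes, 506 to 835 higher, 626 to 1002 lower and 202 to 342 called without overlap, against 197 with all samples; this last count was 342 without vutiglabridin replicate 3 and 308 without vehicle replicate 8. The difference in total FPKM was 35836 to 41740 in those fits (largest exact permutation p = 0.00109). With the replicate number as a block 1557 genes were called, 734 higher and 823 lower. Same-numbered samples correlated between −0.125 and 0.283 in their deviations from the group means, not every sample correlated best with its own number, and the numbers were not taken as pairs. Of the 106 genes followed, the rank test ended the calls of 21 and quantile normalization those of Por, Cyp2j5, Apoh and Hspb8. Under quantile normalization the log2 change of Cat turned to −0.0090 (limma adjusted p = 0.938, against 0.00165 to 0.938 over its alternatives); the cause was not tested. Leaving out single samples ended no call of these genes. Vutiglabridin replicate 7 has the least implied depth, 5.96 in units of 1000000 fragments, so its low values move in the largest steps and small changes of low genes are least certain.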
